A study of Homo sapiens with 18 samples.

Results

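The circadian clock genes ARNTL, CLOCK, PER1, PER2, PER3, CRY1, CRY2, NR1D1, NR1D2 and DBP were followed in U2OS-MycER cells after RAD21 knockdown and MycER activation. They were chosen by name, 10 of the 23399 genes with a value, by a rule that used no measured level, although earlier results of these data were known. U2OS is a human osteosarcoma line that is widely used to study the clock, and here all cells carried a retroviral transgene for MycER, in which Myc is joined to an estrogen receptor domain and stays inactive until 4-hydroxytamoxifen (OHT) is given. Transfected siRNAs targeted either luciferase (siCtrl) or the cohesin subunit RAD21 (siRAD21), and 400 nM OHT or ethanol was given together with them. RNA was taken 24 or 48 h later, which gave 18 libraries in 8 groups, of 3 libraries for siCtrl and for siCtrl OHT at 48 h and of 2 otherwise. The siRNA against RAD21 was a pool of sequences, all groups are from 1 cell line, and no library of cells without MycER was analysed here, so effects of OHT itself and of MycER cannot be told apart. The study took this RNA from exponentially growing cells, and with 2 times neither phase nor amplitude of a rhythm can be read.

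In the core clock loop CLOCK pairs with BMAL1, the product of ARNTL, and the pair activates the PER and CRY genes, NR1D1, NR1D2 and DBP through E-box elements. PER and CRY proteins then inhibit the pair, while the nuclear receptors REV-ERBα (NR1D1) and REV-ERBβ (NR1D2) repress ARNTL and the ROR receptors activate it. DBP is an output factor that binds D-box elements, and Myc with its partner MAX binds the same E-box letters, CACGTG, as CLOCK and BMAL1.

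Promoter letters are shown for ARNTL and NR1D1, which moved in opposite directions with OHT. They are also shown for NR1D2 and PER1, which each have a window with an E-box. Each window runs 5′ to 3′ from 250 bases before a RefSeq start site to 50 bases from it (build GRCh38.p14). The ARNTL window is chr11:13277540-13277839 on the plus strand, that of NR1D1 chr17:40100540-40100839 on the minus strand, that of NR1D2 chr3:23945871-23946170 on the plus strand and that of PER1 chr17:8152355-8152654 on the minus strand. Capitals mark CACGTG (E-box), AGGTCA (the core that REV-ERB and ROR receptors share), TTATGTAA or TTACGTAA (D-box) and TGACGTCA (CRE), on either strand.
ARNTL: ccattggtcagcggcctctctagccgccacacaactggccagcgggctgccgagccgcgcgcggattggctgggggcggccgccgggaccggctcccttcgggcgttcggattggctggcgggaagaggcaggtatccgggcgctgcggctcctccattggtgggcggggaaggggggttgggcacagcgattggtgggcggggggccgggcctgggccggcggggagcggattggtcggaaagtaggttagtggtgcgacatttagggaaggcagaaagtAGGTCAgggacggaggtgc
NR1D1: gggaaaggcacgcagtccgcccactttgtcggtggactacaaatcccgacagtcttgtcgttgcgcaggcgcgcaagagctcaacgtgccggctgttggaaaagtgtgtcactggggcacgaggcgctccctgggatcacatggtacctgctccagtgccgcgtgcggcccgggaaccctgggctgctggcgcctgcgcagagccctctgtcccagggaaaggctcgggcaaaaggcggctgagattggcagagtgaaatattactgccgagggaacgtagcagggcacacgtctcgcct
NR1D2: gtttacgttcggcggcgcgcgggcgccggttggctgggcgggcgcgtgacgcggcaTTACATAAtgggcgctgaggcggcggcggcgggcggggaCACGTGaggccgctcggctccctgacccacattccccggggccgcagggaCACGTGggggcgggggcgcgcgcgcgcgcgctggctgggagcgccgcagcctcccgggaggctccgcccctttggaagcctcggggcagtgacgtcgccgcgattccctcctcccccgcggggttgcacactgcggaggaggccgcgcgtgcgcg
PER1: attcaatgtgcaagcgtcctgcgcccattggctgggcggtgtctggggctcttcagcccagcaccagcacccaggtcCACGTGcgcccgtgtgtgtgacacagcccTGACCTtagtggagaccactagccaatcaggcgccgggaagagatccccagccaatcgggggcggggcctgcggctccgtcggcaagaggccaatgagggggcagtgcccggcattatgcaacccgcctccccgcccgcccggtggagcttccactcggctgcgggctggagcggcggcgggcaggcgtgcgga
The NR1D2 window held CACGTG at -155 and -105 from the start site and a D-box at -194 on the other strand. In PER1 an E-box lay at -173 and AGGTCA at -144 on the other strand, and in ARNTL AGGTCA lay at 32 downstream of the start. A further window of ARNTL and a further window of NR1D2, not shown, held no match. Of the genes not shown, CRY2 held AGGTCA at -62 and -64 in separate windows, and PER3 held TTATGTAA at -177. These letters occurred in none of the windows of NR1D1, DBP, CRY1 and CLOCK, which says only that this stretch lacks them. CACGTG was present in 7.26% of 35116 RefSeq promoter windows, AGGTCA in 13.8%, and the D-box TTATGTAA in 0.886%. All 10 genes had at least 1 such window (15 in all, 8 of them without a match), and PER2 held TTACGTAA at -3, which 0.125% of windows hold. None of the listed motifs overlapped another in these windows, and TGACGTCA, found in 1.85% of all windows, was in none of them.

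Levels are given as eRPKM, reads in exons divided by transcript length and library depth, so they can be compared between genes. The libraries held 9647501 to 12678599 reads, and the fewest reads behind a member in 1 library were 167 for NR1D1 and 198 for ARNTL. RAD21 was measured at 66.4 to 96.9 eRPKM in the 10 libraries with siCtrl and at 11.1 to 18.6 in the 8 libraries labelled siRAD21, with no overlap. MYC reads of the transgene and of the endogenous gene were counted together. The mesenchymal markers VIM (105 to 129 eRPKM) and SPARC (60.6 to 86.4) were high in every library, whereas COL1A2 was at most 0.109. Of other cell types, HBB was at 0 throughout and ALB and CD3E stayed at or below 0.0817, while KRT18 reached 78.1, TUBB3 28.3 and EPCAM 12.9. Whether cells of another kind bear on the clock genes was not tested. The siRAD21 OHT libraries at 48 h differed by less than their sampling noise (chi-square per gene 0.984, against 1.053 to 3.981 for other pairs) and were counted as 1 sample, given as a mean without an SD, although both values are shown and both entered the model.

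All 10 clock genes passed the filter of a mean of at least 1 eRPKM and were tested among 14993 genes. Fold changes are on the scale of log2(eRPKM + 0.5), which understates changes of low genes, and adjusted p-values come from limma with Benjamini-Hochberg adjustment over all 14993 genes. A gene was called when its adjusted p was below 0.05 and its log2 fold change was past 0.5 in either direction. NR1D2 was the most abundant member, and its lowest value (31.2 eRPKM) was above the highest value of every other member. CLOCK (17.0 to 27.9 eRPKM), CRY1 (14.0 to 27.0), CRY2 (13.5 to 20.6) and PER3 (10.7 to 23.5) came next, and neighbours in that order overlapped. NR1D1, PER1, ARNTL, DBP and PER2 had means over the groups of 9.58, 8.75, 8.41, 7.97 and 6.4 eRPKM, again with overlapping ranges. From the lowest to the highest group mean, PER1 spanned 2.74-fold, PER2 2.06-fold, PER3 2.00-fold and ARNTL 1.97-fold, and CRY2 had the narrowest span of 1.45-fold.

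**Figure D1:**
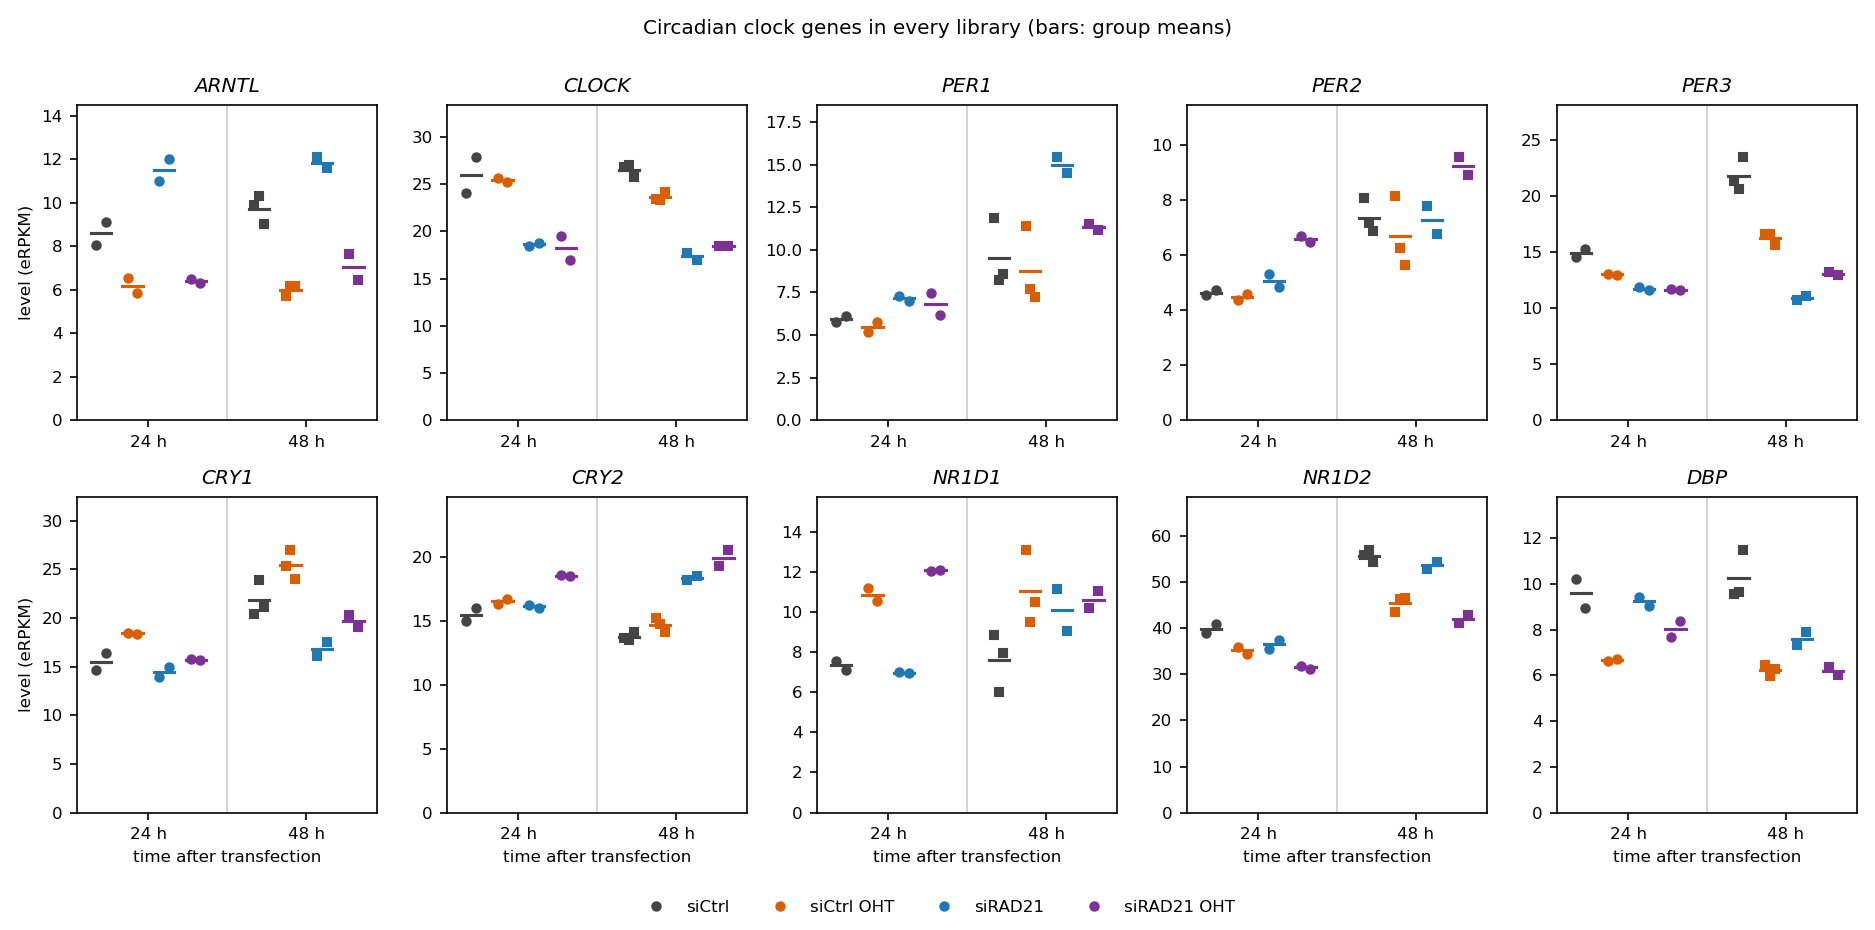
Levels (eRPKM, linear axes from 0) of the 10 clock genes in all 18 libraries by time after transfection, with 1 point per library, circles at 24 h, squares at 48 h, and bars at group means. ARNTL was lower in every OHT library than in any ethanol library, PER3 at 48 h was highest in siCtrl (20.7 to 23.5) and lowest in siRAD21 cells (10.7 to 11.1), and CLOCK was lower in every siRAD21 library than in any siCtrl library.

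OHT lowered ARNTL in siCtrl cells at 48 h and in siRAD21 cells at both times, and raised NR1D1 in siCtrl cells at both times and in siRAD21 cells at 24 h. ARNTL, which encodes BMAL1, a partner of CLOCK, was at 8.04 and 9.13 eRPKM in siCtrl cells at 24 h and at 6.53 and 5.84 with OHT. In siRAD21 cells at 24 h it was at 11.0 and 12.0 without and 6.48 and 6.30 with OHT. At 48 h the siCtrl libraries held 9.88, 10.3 and 9.01, and the siCtrl OHT libraries 5.71, 6.15 and 6.17. With siRAD21 at 48 h the values were 12.1 and 11.6 without OHT and 7.65 and 6.46 with it. In all 4 pairings the OHT libraries lay below the ethanol libraries without overlap. In such bulk samples, fewer cells that express a gene and less of its RNA per cell cannot be told apart. The fall was called in siRAD21 cells at 24 h (log2 fold change -0.80, SE 0.09, adjusted p = 2.28e-05) and 48 h (-0.71, SE 0.09, adjusted p = 1.72e-05) and in siCtrl cells at 48 h (-0.65, SE 0.08, adjusted p = 7.60e-06). In siCtrl cells at 24 h the value was -0.44 (SE 0.09, adjusted p = 0.00319), short of the fold threshold, and it was past it without siCtrl replicate 1 (-0.53) or siCtrl OHT replicate 1 (-0.52).

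NR1D1, the gene of REV-ERBα, a repressor of ARNTL, was at 7.54 and 7.13 eRPKM in siCtrl and at 11.2 and 10.6 in siCtrl OHT cells at 24 h. With siRAD21 at 24 h it was at 6.99 and 6.97 without OHT and at 12.1 and 12.1 with it. At 48 h siCtrl libraries 1 to 3 held 8.88, 6.01 and 7.95 and siCtrl OHT libraries 1 to 3 held 13.1, 9.52 and 10.5. Each OHT group lay above its ethanol group here, and replicate 1 was the highest library of both siCtrl groups at 48 h. NR1D1 rose with OHT in siRAD21 cells at 24 h (log2 fold change 0.75, SE 0.16, adjusted p = 0.00199), and in siCtrl cells at 24 h (0.54, SE 0.16, adjusted p = 0.0206) and 48 h (0.51, SE 0.13, adjusted p = 0.00366). The call in siCtrl cells at 24 h was lost when any 1 of its 4 libraries was left out (0.50 to 0.58), and that at 48 h without siCtrl replicate 2 (0.36), without siCtrl OHT replicate 1 (0.39) or with a pseudocount of 1 (0.49). In siRAD21 cells at 48 h the ranges of NR1D1 overlapped, with 11.1 and 9.04 eRPKM without OHT and 10.2 and 11.0 with OHT (log2 fold change 0.08, 95% confidence interval -0.26 to 0.41, adjusted p = 0.688).

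DBP, an activator of D-box genes and a direct output of the loop, also fell with OHT in siCtrl cells at 48 h. It was at 9.56, 9.66 and 11.5 eRPKM without OHT and at 6.46, 5.97 and 6.28 with it, 2 separate ranges (log2 fold change -0.67, SE 0.07, adjusted p = 4.60e-06). At 24 h the siCtrl libraries held 10.2 and 8.96 and the siCtrl OHT libraries 6.63 and 6.71 (-0.49, adjusted p = 0.00136), just short of the fold threshold, which it passed without siCtrl replicate 2 (-0.58), with a pseudocount of 0.1 and with voom on recovered reads (-0.51 in both). In siRAD21 cells the log2 difference with OHT was -0.19 at 24 h and -0.28 at 48 h, neither of them called.

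Of the other members none was called for OHT in siCtrl cells or in siRAD21 cells. NR1D2 had an adjusted p below 0.05 in all 4 comparisons with OHT, at log2 fold changes of -0.18 and -0.29 in siCtrl and -0.21 and -0.35 in siRAD21 cells at 24 and 48 h, opposite in sign to NR1D1. CRY1, a repressor of the CLOCK pair, was at 14.7 and 16.4 eRPKM in siCtrl and 18.5 and 18.4 in siCtrl OHT cells at 24 h (0.24, adjusted p = 0.0351). In total, OHT in siCtrl cells called 1 of 10 clock genes at 24 h, where 8.78% of all genes tested were called, and 3 of 10 at 48 h, against 17.9%. In siRAD21 cells it called 2 of 10 at 24 h, against 11.9%, and 1 of 10 at 48 h, against 28.6%. With 10 genes these shares lie near the background and are no result about the clock genes as a set. The median log2 fold change over the 10 genes was -0.08, -0.15, -0.02 and 0.08 in these 4 comparisons, beside -0.01, -0.01, -0.01 and -0.02 over all genes.

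**Figure D2:**
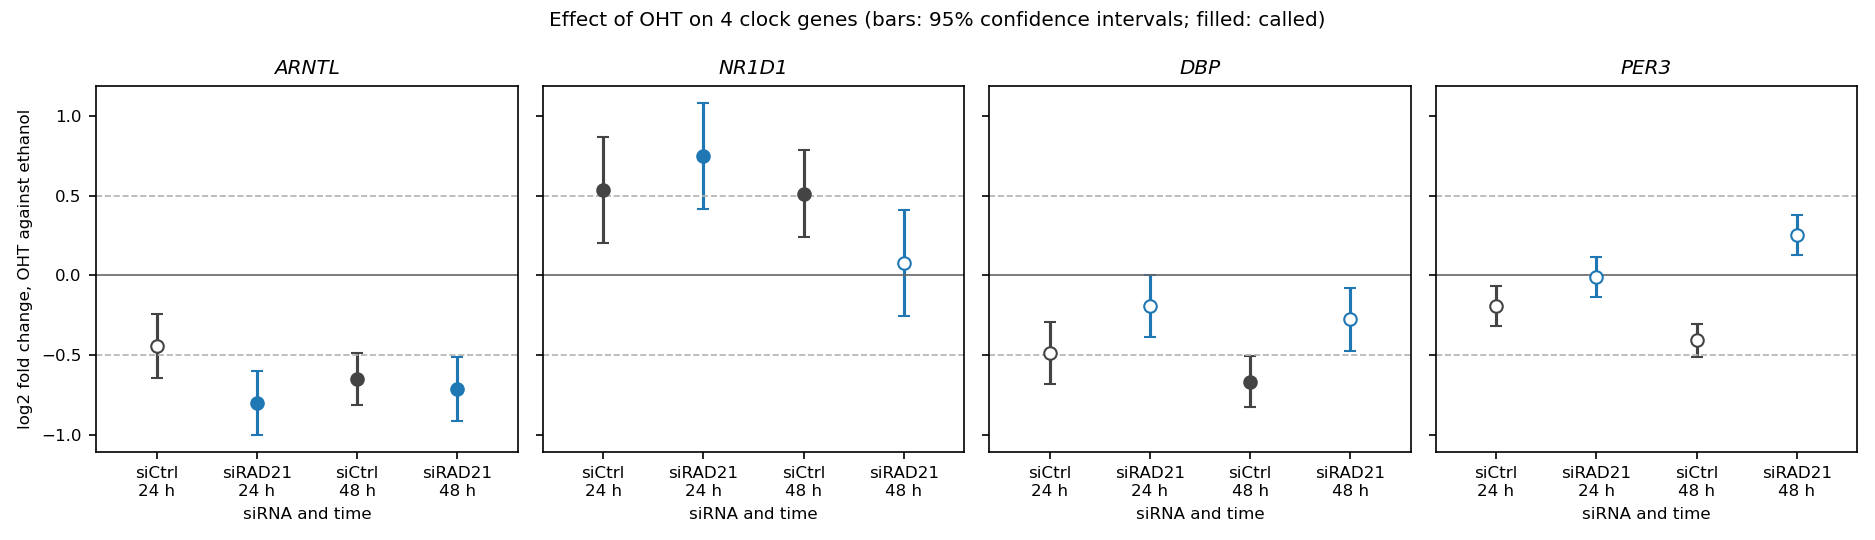
Log2 fold change (eRPKM + 0.5) with OHT against ethanol for ARNTL, NR1D1, DBP and PER3, by siRNA and time, with bars as 95% confidence intervals, filled points for called changes and dashed lines at 0.5 and -0.5. ARNTL lay between -0.80 and -0.44 in all 4, NR1D1 was at 0.08 in siRAD21 cells at 48 h against 0.51 to 0.75 elsewhere, and PER3 went from -0.41 in siCtrl to 0.25 in siRAD21 cells at 48 h.

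RAD21 knockdown lowered CLOCK and PER3 and raised PER1 at 48 h. CLOCK, a histone acetyltransferase and a partner of BMAL1, was at 26.8, 27.0 and 25.8 eRPKM in siCtrl and at 17.7 and 17.0 in siRAD21 cells at 48 h (log2 fold change -0.60, SE 0.06, adjusted p = 1.48e-06). At 24 h its values were 24.1 and 27.9 against 18.5 and 18.8 (-0.46, SE 0.07, adjusted p = 0.000165), without overlap but short of the fold threshold, which it passed without siCtrl replicate 1 (-0.57). PER3, a PER gene of less certain weight in the loop than PER1 and PER2, was at 21.3, 20.7 and 23.5 eRPKM in siCtrl and at 10.7 and 11.1 in siRAD21 cells at 48 h (-0.97, SE 0.05, adjusted p = 3.89e-09). At 24 h the corresponding values were 14.6 and 15.3 against 11.9 and 11.6 (-0.34, SE 0.06, adjusted p = 0.000741).

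PER1, an early-responding PER gene, was at 11.9, 8.20 and 8.56 eRPKM in siCtrl cells at 48 h and at 15.4 and 14.5 in siRAD21 cells. Here siCtrl replicate 1 stood above the other 2 control libraries, but the ranges did not overlap (log2 fold change 0.64, SE 0.17, adjusted p = 0.00473). CRY2, the second cryptochrome, was at 13.7, 13.5 and 14.1 eRPKM in siCtrl and at 18.2 and 18.6 in siRAD21 cells at 48 h (0.41, SE 0.05, adjusted p = 5.05e-06), and CRY1 at 20.4, 23.9 and 21.1 against 16.1 and 17.5 (-0.37, SE 0.07, adjusted p = 0.00059). The 2 cryptochromes thus lay on opposite sides of 0, both without overlap and both short of the fold threshold. ARNTL was at 0.41 at 24 h and 0.27 at 48 h, with adjusted p = 0.00557 and 0.0136, and NR1D2 was at -0.13 and -0.05 (log2 fold changes). NR1D1 was at 0.39 at 48 h and was past the threshold without siCtrl replicate 1 (0.51) or siRAD21 replicate 2 (0.54).

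Knockdown called 3 of 10 clock genes at 48 h, where 23.7% of all genes were called, and 0 of 10 at 24 h, where 8.43% were. At 24 h limma gave 4 members and 5535 genes an unadjusted p below 0.05, and voom on recovered reads also called 0 members. The medians over the members were -0.06 at 24 h and -0.04 at 48 h, beside 0.002 and -0.01 over all genes, with 6 of 10 members below 0 at both times.

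In cells with active MycER the knockdown raised PER2 at 24 h. PER2, a central repressor of the loop, was at 4.36 and 4.57 eRPKM in siCtrl OHT and at 6.67 and 6.46 in siRAD21 OHT cells, without overlap (log2 fold change 0.51, SE 0.13, adjusted p = 0.0132). The call was lost without siCtrl OHT replicate 1 (0.48) or either siRAD21 OHT library (0.49 and 0.53), with a pseudocount of 1 (0.47) and with quantile normalization (0.43). At 48 h PER2 was at 8.14, 6.24 and 5.63 in siCtrl OHT and at 9.54 and 8.88 in siRAD21 OHT cells (0.45, adjusted p = 0.00667), where siCtrl OHT replicate 1 again stood highest in its group and leaving it out gave 0.60. CLOCK was at -0.47 and -0.35 and PER3 at -0.15 and -0.31 at 24 and 48 h under OHT, none of them called. These comparisons called 1 of 10 members at 24 h, against 6.47% of all genes, and 0 of 10 at 48 h, against 16.2%. At 48 h limma gave 8 members and 7745 genes an unadjusted p below 0.05, and voom called 0 members. The member medians were 0.10 and -0.03, and those of all genes 0.01 and -0.0017.

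**Figure D3:**
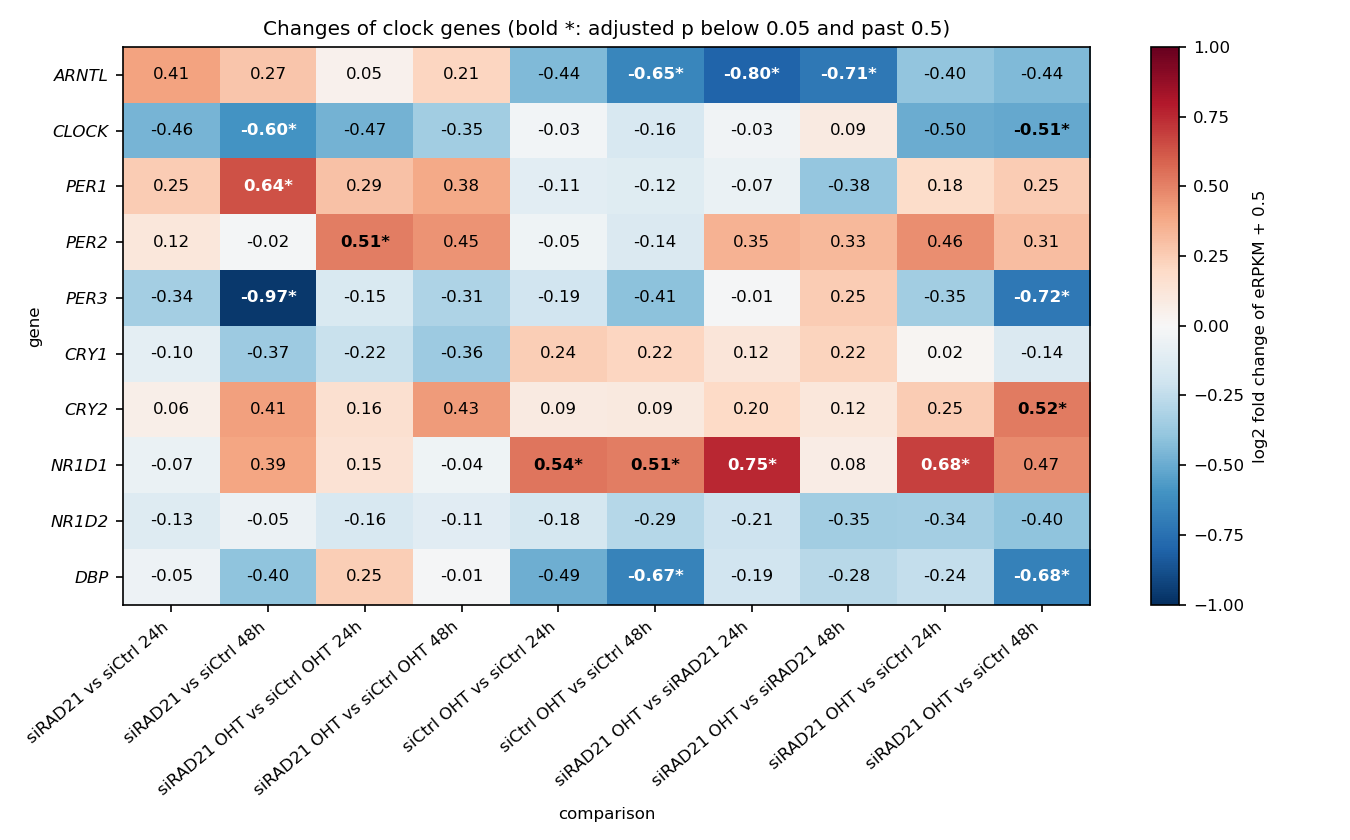
Log2 fold changes (eRPKM + 0.5) of the 10 clock genes in 10 comparisons, with each value printed and called changes in bold with an asterisk. CLOCK is below 0 in every comparison of siRAD21 with siCtrl, ARNTL is below 0 in every comparison of OHT with ethanol, and PER3 has the lowest value, -0.97.

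Against siCtrl without OHT, cells with both treatments had lower PER3, CLOCK and DBP and higher CRY2 at 48 h, and higher NR1D1 at 24 h. PER3 was at 13.2 and 13.0 eRPKM with both treatments at 48 h (log2 fold change -0.72, SE 0.05, adjusted p = 4.82e-08), and DBP at 6.38 and 6.0 (-0.68, SE 0.08, adjusted p = 7.19e-06). CRY2 reached 19.4 and 20.6, its highest group (0.52, SE 0.05, adjusted p = 3.03e-07), a call that was lost without siRAD21 OHT replicate 2 (0.48). CLOCK was at 18.4 and 18.5 (-0.51, SE 0.06, adjusted p = 5.29e-06), a call lost without siCtrl replicate 2 (-0.50) and with centring on the median (-0.50). At 24 h NR1D1 was at 0.68 (SE 0.16, adjusted p = 0.00348), and CLOCK at -0.50 and PER2 at 0.46 were the next in size. At 48 h NR1D1 was at 0.47 (adjusted p = 0.0108) and ARNTL at -0.44 (adjusted p = 0.000488), both short of the fold threshold. NR1D1 was called without siCtrl replicate 1 (0.58) or 3 (0.51), without siRAD21 OHT replicate 1 (0.53) and with quantile normalization (0.5). ARNTL was called without siRAD21 OHT replicate 1 (-0.55). The combination called 1 of 10 members at 24 h, against 13.1% of all genes, and 4 of 10 at 48 h, against 28%. All comparisons at 1 time share libraries, so the same siCtrl values stand behind several of these differences.

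PER3 was the single member for which the effect of OHT differed between siCtrl and siRAD21 cells past the threshold. At 48 h OHT was at -0.41 (SE 0.05) for PER3 in siCtrl cells, from 20.7 to 23.5 down to 16.6, 16.6 and 15.7 eRPKM, and at 0.25 (SE 0.06) in siRAD21 cells, from 10.7 and 11.1 up to 13.2 and 13.0. The siRNA by OHT interaction was 0.66 (SE 0.08, adjusted p = 8.44e-05), and the groups of each pair did not overlap. With OHT, PER3 was thus closer between the 2 siRNAs (-0.31) than without it (-0.97). DBP had an interaction of 0.39 (SE 0.12, adjusted p = 0.0351), PER2 of 0.47 (adjusted p = 0.0708) and NR1D1 of -0.44 (adjusted p = 0.154), and none of these was called. Without siCtrl OHT replicate 1, PER2 was past the threshold (0.61). At 48 h the interaction called 1 of 10 members, against 7.3% of all genes. At 24 h it called 0 of 10 members and 0% of all genes by limma, with 3 members (ARNTL at -0.36, PER3 at 0.18 and DBP at 0.30) and 906 genes at an unadjusted p below 0.05, and voom called 0 members.

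The effect of knockdown on PER3 also grew with time. It went from -0.34 at 24 h to -0.97 at 48 h, a difference of -0.63 (SE 0.08, adjusted p = 9.14e-05), while PER3 rose from 14.6 and 15.3 to 20.7 to 23.5 eRPKM in siCtrl cells and was at 11.9 and 11.6 and then 10.7 and 11.1 in siRAD21 cells. CRY2 differed by 0.35 between the times (adjusted p = 0.00264), short of the fold threshold. This comparison called 1 of 10 members, against 10.7% of all genes. The effect of OHT in siCtrl cells differed between the times for 0 of 10 members, against 1.77% of all genes, with 1 member and 2852 genes at an unadjusted p below 0.05 and 0 members by voom. In siRAD21 cells it differed for 0 of 10 members, against 5.84%, with 2 members and 4355 genes at an unadjusted p below 0.05. There NR1D1 was at -0.67 (SE 0.22, adjusted p = 0.0587), from 0.75 at 24 h to 0.08 at 48 h, and voom (-0.71) and a fit with a replicate block (-0.67) called it.

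From 24 to 48 h all 3 PER genes rose in siCtrl cells. PER1 went from 5.75 and 6.10 to 11.9, 8.20 and 8.56 eRPKM (log2 fold change 0.63, SE 0.17, adjusted p = 0.00756), PER2 from 4.53 and 4.73 to 8.06, 7.15 and 6.85 (0.61, SE 0.12, adjusted p = 0.000969), and PER3 from 14.6 and 15.3 to 21.3, 20.7 and 23.5 (0.53, SE 0.05, adjusted p = 5.16e-06). For each of the 3 genes every library at 48 h was above both libraries at 24 h. PER1 was below the fold threshold or not significant without siCtrl 24 h replicate 1 (0.59) or siCtrl 48 h replicate 1 (0.47), and PER3 without siCtrl 24 h replicate 1 (0.50) or siCtrl 48 h replicate 3 (0.48) and with replicates 1 and 2 alone (0.48).

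NR1D2 and CRY1 were higher at 48 h by nearly as much in siCtrl cells. NR1D2 went from 39.0 and 40.9 to 55.8, 57.1 and 54.3 eRPKM (log2 fold change 0.48, SE 0.04, adjusted p = 1.93e-06), and CRY1 from 14.7 and 16.4 to 20.4, 23.9 and 21.1 (0.48, SE 0.07, adjusted p = 0.000137). Both passed the fold threshold with centring of each library on its median (0.56 and 0.57), which moved libraries by -0.08 to 0.086 on the log2 scale. CRY1 also passed it with a replicate block (0.51).

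In siRAD21 cells PER1 went from 7.30 and 7.01 to 15.4 and 14.5 eRPKM, the widest change of a clock gene with time (log2 fold change 1.01, SE 0.18, adjusted p = 0.000363), and NR1D2 from 35.6 and 37.4 to 52.8 and 54.5 (0.55, SE 0.05, adjusted p = 4.96e-07). PER3 did not follow PER1 here, at -0.10 (95% confidence interval -0.23 to 0.02). PER2 (0.48, adjusted p = 0.00696) and NR1D1 (0.49, adjusted p = 0.0158) were short of the fold threshold by limma. Both were called with voom (0.52 and 0.53), a pseudocount of 0.1, median centring and quantile normalization. In siCtrl OHT cells PER1 (0.61, SE 0.17, adjusted p = 0.00991) and PER2 (0.51, SE 0.12, adjusted p = 0.00365) were called, and both calls were lost without siCtrl OHT replicate 1 of either time (PER1 0.55 and 0.42, PER2 0.48 and 0.37), that of PER2 also with a pseudocount of 1 (0.47). In siRAD21 OHT cells PER1 went from 7.45 and 6.19 to 11.5 and 11.2 (0.70, SE 0.18, adjusted p = 0.00641), a call that was lost without siRAD21 OHT 24 h replicate 2 (0.57).

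By condition, time called 3 of 10 members in siCtrl cells (12.4% of all genes), 2 in siCtrl OHT (10.5%), 2 in siRAD21 (23%) and 1 in siRAD21 OHT cells (17.3%), all of them higher at 48 h. The medians over the members were 0.32, 0.16, 0.20 and 0.14, beside -0.04, -0.04, -0.05 and -0.05 over all genes. Members above 0 numbered 9 of 10 in siCtrl, 6 in siCtrl OHT, 7 in siRAD21 and 8 in siRAD21 OHT cells, against 6562, 6499, 6682 and 6628 of 14993 genes. At 48 h replicate 1 was the highest library for PER1 and PER2 in both siCtrl and siCtrl OHT cells, as for NR1D1. Time after transfection, time with OHT and culture age are 1 variable here and cannot be told apart.

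**Figure D4:**
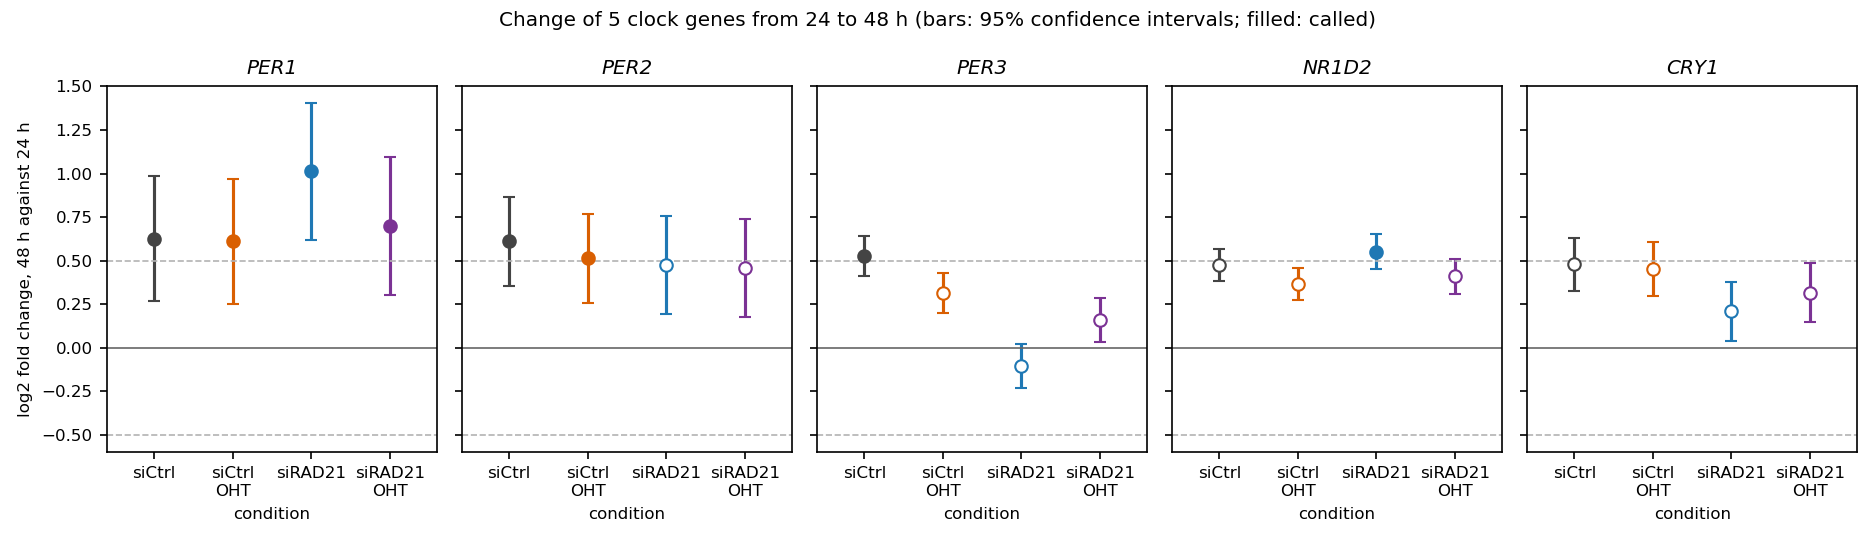
Log2 fold change (eRPKM + 0.5) from 24 to 48 h of PER1, PER2, PER3, NR1D2 and CRY1 in the 4 conditions, with bars as 95% confidence intervals, filled points for called changes and dashed lines at 0.5 and -0.5. PER1 is between 0.61 and 1.01 in all 4, and PER3 is at 0.53 in siCtrl and at -0.10 in siRAD21 cells.

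**Figure D5:**
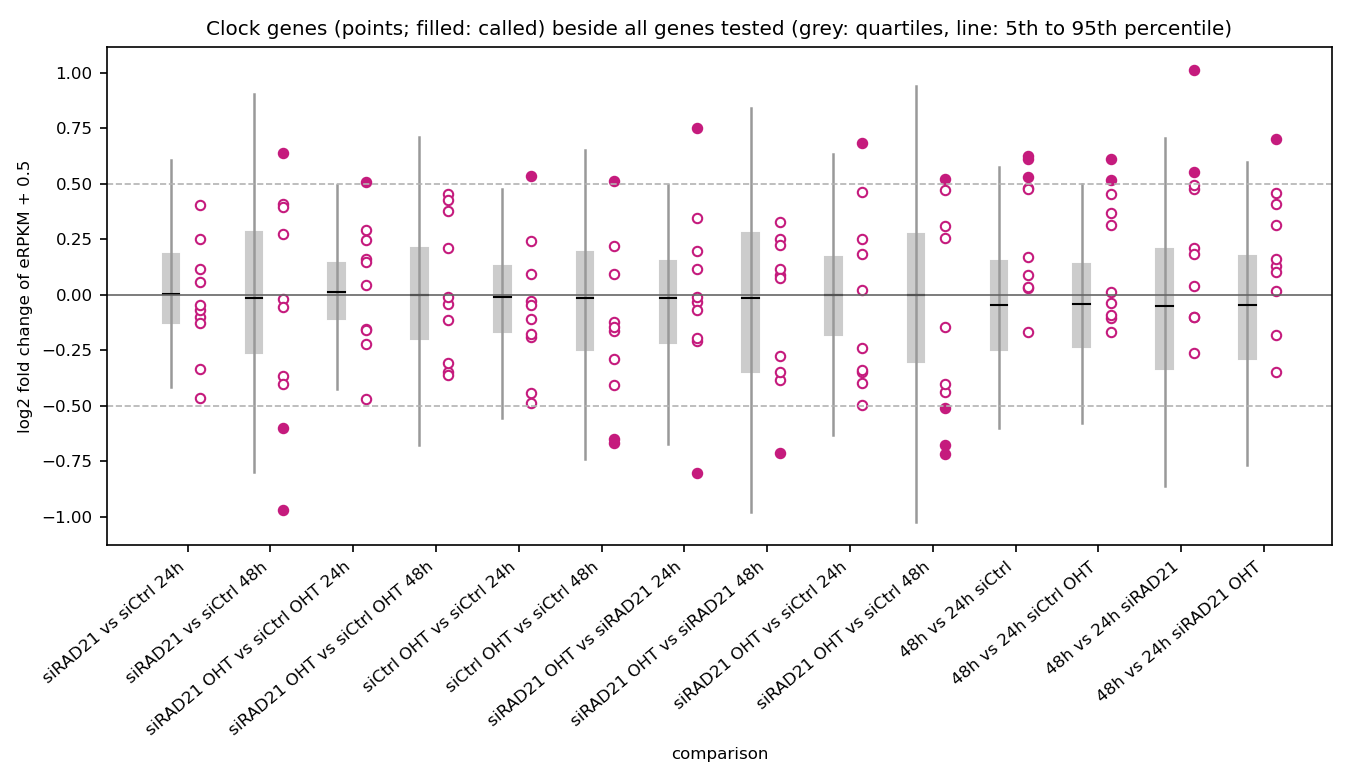
Log2 fold changes (eRPKM + 0.5) of the 10 clock genes as points (filled where called) beside the quartiles (grey box), median and 5th to 95th percentile (line) of all 14993 genes, in 14 comparisons. The clock genes spread over both sides of 0 with either treatment, whereas their medians from 24 to 48 h lie at 0.14 to 0.32 above medians of all genes that are below 0.

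Over the 8 group means, ARNTL ran opposite to NR1D1 (Pearson r = -0.70) and DBP opposite to NR1D1 (-0.81), while PER1 ran with PER2 (0.81) and CLOCK with PER3 (0.78) and against CRY2 (-0.80). The 8 means share their libraries and treatments, so these values are descriptions. Of all genes tested, FBLIM1 (0.985), RUSC1-AS1 (0.984) and SENP7 (0.982) had the patterns most like that of ARNTL, and SPINK4 (0.928), LRP4 (0.925) and ADGRB1 (0.915) those most like NR1D1. For PER2 these were IVNS1ABP (0.972), LINC00371 (0.972) and H3F3B (0.963), and for DBP TESK2 (0.974), IFIT1 (0.969) and PTMS (0.966), each over 8 group means. Levels of RUSC1-AS1 (0.635 to 2.92 eRPKM), SPINK4 (0.252 to 2.39) and LINC00371 (0.43 to 2.41) were near the filter.

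Of 36 other genes of the clock pathway, 31 were tested, and 13 of them were called in at least 1 of the 8 comparisons with a single treatment, where 47.4% of all genes tested were. Among the loop factors, BHLHE41 (DEC2, a repressor at E-boxes) had the widest fall with knockdown, from 19.8, 15.3 and 18.5 to 6.64 and 7.44 eRPKM at 48 h (log2 fold change -1.28, SE 0.11, adjusted p = 2.59e-07). OHT lowered it in siCtrl cells at 48 h (-0.73) and its interaction was 1.21 (adjusted p = 0.000167), so its pattern at 48 h had the same signs as that of PER3. RORA, which activates ARNTL, went from 4.64, 4.20 and 3.99 to 10.1 and 9.96 with knockdown at 48 h (1.14, SE 0.13, adjusted p = 5.12e-06) and fell with OHT in siRAD21 cells (-0.65). At 24 h knockdown called RORA higher (0.63) and BHLHE41 lower (-0.57), where 8.43% of all genes were called. OHT in siRAD21 cells at 24 h called BHLHE41 higher (0.53), against 11.9% of all genes. Under OHT at 48 h, knockdown called 1 of 8 tested loop factors, higher, against 16.2%. RORB fell with OHT in siCtrl cells (-0.75), and BHLHE40 (DEC1) with OHT in siRAD21 cells (-0.61), both at 48 h. The level of RORB was near the filter, at 0.66 to 2.18 eRPKM over all libraries (mean 1.23). From 24 to 48 h, 4 of 8 tested loop factors were called in siCtrl cells (12.4% of all genes), 1 in siCtrl OHT (10.5%), 2 in siRAD21 (23%) and 2 in siRAD21 OHT cells (17.3%), all of them higher at 48 h.

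Among 14 tested modifiers, USP2, a deubiquitinase, fell with knockdown under OHT at 48 h (-0.55). SIRT1, a deacetylase, fell with knockdown at 24 h (-0.52), and USP2 with OHT in siRAD21 cells at 48 h (-0.96). These 3 calls stand beside 16.2%, 8.43% and 28.6% of all genes called in the same comparisons.

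Of 7 tested output genes, KLF9 fell with OHT in siCtrl cells at 48 h from 17.1, 16.3 and 15.3 to 8.96, 8.48 and 7.36 eRPKM (-0.93, SE 0.08, adjusted p = 2.47e-07), and in siRAD21 cells at 24 h (-0.60) and 48 h (-0.92). Knockdown raised it at 48 h without OHT (0.64) and with OHT (0.65). TSC22D3, a glucocorticoid-responsive gene, rose with knockdown without OHT (1.02 at 24 h and 0.55 at 48 h) and with OHT (0.88 and 1.15). KLF10 fell with knockdown at 24 h (-0.55, and -0.66 under OHT), PPARA fell with knockdown under OHT (-0.57 and -0.56) and with OHT in siRAD21 cells at 48 h (-0.74), and NAMPT rose with OHT in siRAD21 cells at 48 h (0.53). TIPIN, a replication fork partner of TIMELESS, fell with knockdown at 48 h (-0.85) and rose with OHT in siCtrl cells at 48 h (0.65) and in siRAD21 cells at 24 h (0.57) and 48 h (1.39). Of the 31 genes, knockdown called 5 at 24 h and 5 at 48 h, where 8.43% and 23.7% of all genes were called. OHT called 0 and 4 in siCtrl cells, against 8.78% and 17.9%, and 3 and 7 in siRAD21 cells, against 11.9% and 28.6%. At the count of 0, limma gave 11 of the 31 an unadjusted p below 0.05, beside 5552 of all 14993 genes. Under OHT, knockdown called 4 and 6, against 6.47% and 16.2%. The 31-gene medians in these 8 comparisons ran from -0.12 to -0.03.

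The library kit does not mark the strand, so reads in exons that overlap a neighbour cannot be assigned. In the annotation on GRCh37, NR1D1 (chr17:38249046-38256842, minus strand) shares 473 exon bases with THRA on the opposite strand, DBP (chr19:49133287-49140636, minus strand) shares 661 with SPHK2, PER3 (chr1:7844351-7905237, plus strand) shares 868 with UTS2, and CLOCK shares 76 with TMEM165. With OHT in siCtrl cells at 48 h, THRA was at -0.44 where NR1D1 was at 0.51, and SPHK2 at -0.21 where DBP was at -0.67. UTS2 stayed at or below 0.448 eRPKM in every library, against at least 10.7 for PER3. PER3 also shares 482 exon bases with a noncoding RNA on the opposite strand, as do ARNTL (chr11:13298199-13408813, plus strand) with 421, PER2 with 188 and CRY1 with 94, and PER1 shares 30 with a gene on its own strand. None of these 5 neighbours was analysed here, so their part in the members' values was not tested.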

How the data were processed

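RNA-seq libraries of U2OS-MycER cells (18 in 8 groups, assigned from their labels) were made by the authors from ribosome-depleted RNA with a kit that does not mark the strand. The authors aligned the reads to hg19 with TopHat2 (2.0.8 per the submitters' processing notes, which also name featureCounts 1.4.5), removed PCR duplicates, which can lower abundant genes more than rare ones, and deposited 1 value per library for each of 23399 genes in eRPKM (exonic RPKM). The strand setting of the counting and the annotation are not given in the sources used here.

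From the deposited RPKM values, log2(eRPKM + 0.5) of all 18 libraries was fitted with limma 3.58.1 (R 4.3.3), with a mean for each of 8 groups, a variance trend and no block. Genes with a mean of at least 1 eRPKM were tested (14993), with Benjamini-Hochberg adjustment in each of 19 comparisons and thresholds of 0.05 for the adjusted p and 0.5 for the log2 fold change. The authors' own test was DESeq2 with the same thresholds, and a count model was not the main test here because no counts were used as deposited. Whole reads, within 0.01 of a read, were recovered for 21254 genes and served for voom and for depths, and the fewest reads of a member in a library (167) set its counting precision. Replicates were compared by chi-square on these reads. With few libraries in a group, p-values measure the spread between these libraries.

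The members are those of the chosen gene set. They and the lists of pathway genes were chosen with earlier results of these data known. Other genes are named where called in a comparison with a single treatment, where their exons overlap a member, or as the 3 genes most like ARNTL, NR1D1, PER2 and DBP over the group means. Some of these results are not reported here. Replicate numbers were taken to pair siCtrl with siCtrl OHT at 48 h, since deviations of same-numbered libraries from their group means correlated at 0.258, 0.13 and 0.157. The labels state no pairing, and no correlation was computed between differently numbered libraries of 2 groups. At 48 h the values were also 0.168 and 0.111 for siCtrl OHT with siRAD21, and 0.099 and 0.146 for siCtrl with siRAD21. At 24 h the value for siCtrl with siCtrl OHT was below 0, at -0.134. Pairing is thus not established. The fit was tested on simulated data. Alternatives were pseudocounts of 0.1 and 1, other filters, median centring, quantile normalization, other settings of the fit, a replicate block, voom, and each library left out in turn. Promoters came from RefSeq (GRCh38.p14) and gene positions from GENCODE on GRCh37. Python 3.11.15 with pandas 2.3.3 and numpy 2.4.6 read the tables, and matplotlib 3.10.9 drew the figures. Binding data of the study were not analysed here.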

Additional observations from a re-analysis of the deposited data

Results flagged for a closer look

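PER3 stood out by tests of a difference between effects. At 48 h its response to OHT differed between siRAD21 and siCtrl cells by 0.66 on the log2 scale (SE 0.08, adjusted p = 8.44e-05 from limma, adjusted over all genes), and over all alternatives this interaction ran from 0.58 to 0.71 and stayed called. The effect of siRAD21 on PER3 differed between 48 and 24 h by -0.63 (SE 0.08, adjusted p = 9.14e-05), with a range of -0.67 to -0.58 over all alternatives. Every library moved in the stated direction at 48 h: the 3 siCtrl OHT libraries were below all 3 siCtrl libraries, and both siRAD21 OHT libraries were above both siRAD21 libraries. The latter pair counts as 1 sample.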

How the results depend on the processing

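The 26 called gene results were recomputed under 31 alternatives, which gave 806 values, of which 780 kept their call, 26 lost it and 0 reversed. Dropping the fold threshold cannot lose a call. Leaving out a library of a group outside the comparison leaves the fold change as it was. The share kept therefore overstates how stable a call is. NR1D1 with OHT in siCtrl cells at 24 h kept its call in 27 of 31, yet lost it without any 1 of its own 4 libraries. In all, 16 of the 26 kept their call under every alternative: ARNTL, DBP, PER3 and CLOCK at 48 h in single treatments were among them. Counts of called members stayed within 1.5 times in 532 of 589 recomputations. Without a fold threshold the counts were 3, 6, 4, 4 and 7 at 24 h (siRAD21, OHT in siCtrl, OHT in siRAD21, siRAD21 under OHT, both treatments), and 8, 7, 6, 6 and 8 at 48 h. They were 2 for the 48 h interaction, 6, 6, 7 and 6 for time in siCtrl, siCtrl OHT, siRAD21 and siRAD21 OHT cells, and 2 for the change of the siRAD21 effect. The share of all genes under this rule was not counted, so these counts are no result about the clock genes. At an unadjusted p below 0.05, limma gave 8 members and 9297 of 14993 genes for siRAD21 at 48 h. At 24 h it gave 4 members and 5535 genes. With a pseudocount of 0.1 the member counts were 2 (OHT in siCtrl, 24 h), 2 (both treatments, 24 h) and 4 (time, siRAD21). A pseudocount of 1 gave 0 (siRAD21 under OHT, 24 h) and 1 (time, siCtrl OHT). Quantile normalization gave 0 (siRAD21 under OHT, 24 h), 2 (OHT in siRAD21, 48 h), 4 (time, siRAD21), 2 (time, siRAD21 OHT) and 1 (OHT effect between times, siRAD21). Median centring gave 5, 4 and 2 for time in siCtrl, siRAD21 and siRAD21 OHT cells, and voom gave 2 (OHT in siCtrl, 24 h), 3 (both treatments, 24 h), 4 (time, siRAD21) and 1 (OHT effect between times, siRAD21). For that last comparison the filter at 5 eRPKM, a fit of only the groups compared, the replicate block and the crossed block also gave 1. Except where the setting itself sets the threshold, the cause was not tested.

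With each library left out in turn, the count of called members ranged from 0 to 1 (siRAD21, 24 h), 0 to 1 (OHT in siCtrl, 24 h), 0 to 1 (siRAD21 under OHT, 24 h), 1 to 2 (both treatments, 24 h), 0 to 2 (siRAD21 under OHT, 48 h), 1 to 2 (interaction, 48 h), 1 to 5 (time, siCtrl), 0 to 2 (time, siCtrl OHT), 2 to 4 (time, siRAD21), 0 to 2 (time, siRAD21 OHT) and 0 to 1 (OHT effect between times, siRAD21). At 48 h the count also ranged from 3 to 4 (siRAD21), 2 to 3 (OHT in siCtrl) and 3 to 6 (both treatments). In the other comparisons it did not change.

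In the comparison taken as paired by replicate number, OHT in siCtrl cells at 48 h, the replicate block changed no call of a member (3 of 10). Elsewhere the block gained CRY1 for time in siCtrl cells (0.51) and NR1D1 for the OHT effect between times in siRAD21 cells (-0.67). Crossing the numbers of siCtrl at 24 h, an alternative chosen after seeing the data, gained the same 2 genes, 1 in each of these comparisons. Averaging the siRAD21 OHT pair at 48 h changed no call of a member.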

Other observations

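At 48 h the library numbered 1 was the highest of its group for PER1, PER2 and NR1D1 in both siCtrl cells (11.9, 8.06 and 8.88 eRPKM) and siCtrl OHT cells (11.4, 8.14 and 13.1). The same holds for PER1, PER2 and NR1D1 in siRAD21 cells at 48 h (15.4, 7.76 and 11.1 eRPKM). It does not hold for PER3 and NR1D2, which were highest in replicates 3 and 2 of siCtrl cells (23.5 and 57.1). This was noticed in these data and was not tested, and the labels name no batch.

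MYC, whose reads include those of the MycER transgene, was lower with OHT in siRAD21 cells at 24 h (log2 difference -0.57) and 48 h (-0.72), and in siCtrl cells was at -0.37 and -0.22, short of the fold threshold.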
